A study of Mus musculus with 10 samples.

Results

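The transcripts described here belong to the ATF4 pathway and to the synthesis of serine and its one-carbon units, and they were followed in the kidneys of young mice that carry an activating form of the Rag GTPase RagC. The list holds 10 genes, chosen by name: Atf4, Asns, Phgdh, Psat1, Psph, Shmt2, Mthfd2, Trib3, Ddit4 and Aldh1l2. Of these, 8 were among the 13837 genes of the deposited values and all 8 passed the filter on low values, while Trib3, a pseudokinase that dampens the ATF4 response, and Aldh1l2, a mitochondrial enzyme that oxidises formyl-folate, were not analysed here. Whole kidneys came from 5 mice labelled RagC S74N (+/+), written below as Rragc +/+, and from 5 mice labelled RagC S74N (KI/+), written as Rragc S74N/+, all 3 months old. Both genotypes are of the C57BL/6 background. The S74N allele is a CRISPR knock-in present in every cell of the body, so an effect that starts inside the kidney and one that reaches it from elsewhere cannot be told apart, and only heterozygous mice can be studied because homozygotes are not viable. Each library came from 1 mouse and is named below by its genotype and a number given in the order of the sample records.

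ATF4 is a transcription factor whose mRNA is translated more when the initiation factor eIF2 is phosphorylated by kinases that sense amino acid shortage, unfolded protein in the endoplasmic reticulum, viral RNA or haem lack. The kinase complex mTORC1, which Rag GTPases bring to the lysosome when amino acids are plentiful, also raises ATF4 protein in cultured cells. Known ATF4 targets include the enzymes that make serine from a glycolytic intermediate, those that move the serine carbon onto folate in mitochondria, asparagine synthetase and many amino acid transporters. The kidney is known as an organ that makes serine and releases it into the blood, mainly from the proximal tubule. Transcript levels do not report the translation of Atf4 or the activity of any of these enzymes.

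Values are normalized read counts, that is, reads counted per gene divided by a size factor of the library, from a method that reads only the 3′ ends of transcripts. The libraries held between 6501552 and 7996087 reads on genes, and depth did not separate the genotypes (two-sided exact permutation test, p = 0.595). Of 13197 genes tested with limma on log2(value + 1), 3.69% passed an adjusted p of 0.05, made up of 1.67% that were higher and 2.02% that were lower in Rragc S74N/+ kidneys. Library codes ran from numbers ending in 38 to 40 for Rragc +/+ mice 1 and 2 and Rragc S74N/+ mouse 1, and from 53 to 66 for the other 7 kidneys. What this break in the codes stands for is not given in the sources used here. Within those 7 kidneys depth did separate the genotypes, with every Rragc S74N/+ library above every Rragc +/+ library. The kidney of Rragc S74N/+ mouse 5 stood apart, with 3504 normalized counts of Cfd, an adipocyte transcript, against 3.40 to 52.3 in Rragc +/+ kidneys, and with 4588 of Ttr, made in liver, against 711 to 980. Mouse 1 of that genotype had 807 normalized counts of Cfd, and results that turn on mouse 5 are given without it too. Rragc itself had 285 ± 42.3 normalized counts in Rragc +/+ kidneys and 216 ± 23.6 in Rragc S74N/+ kidneys (SD, n = 5 each), a log2 fold change of -0.40 that did not pass in limma (adjusted p = 0.0678) and passed in DESeq2 (adjusted p = 0.0312). Reads at the 3′ end do not show the knocked-in codon, so the level of Rragc does not check the genotype labels.

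The level of Atf4 mRNA differed little between genotypes. The Rragc +/+ kidneys of mice 1 to 5 held 1335, 1252, 1102, 1089 and 1137 normalized counts, and the Rragc S74N/+ kidneys held 1189, 1389, 1119, 1266 and 1237. The ranges overlapped almost wholly. Atf4 changed by 0.07 ± 0.08 (SE) on the log2 scale, with a 95% interval from -0.11 to 0.25 (limma, adjusted p = 0.773). The depth behind these values was 972 to 1495 reads per library, so counting error was small beside the spread between mice.

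**Figure D1:**
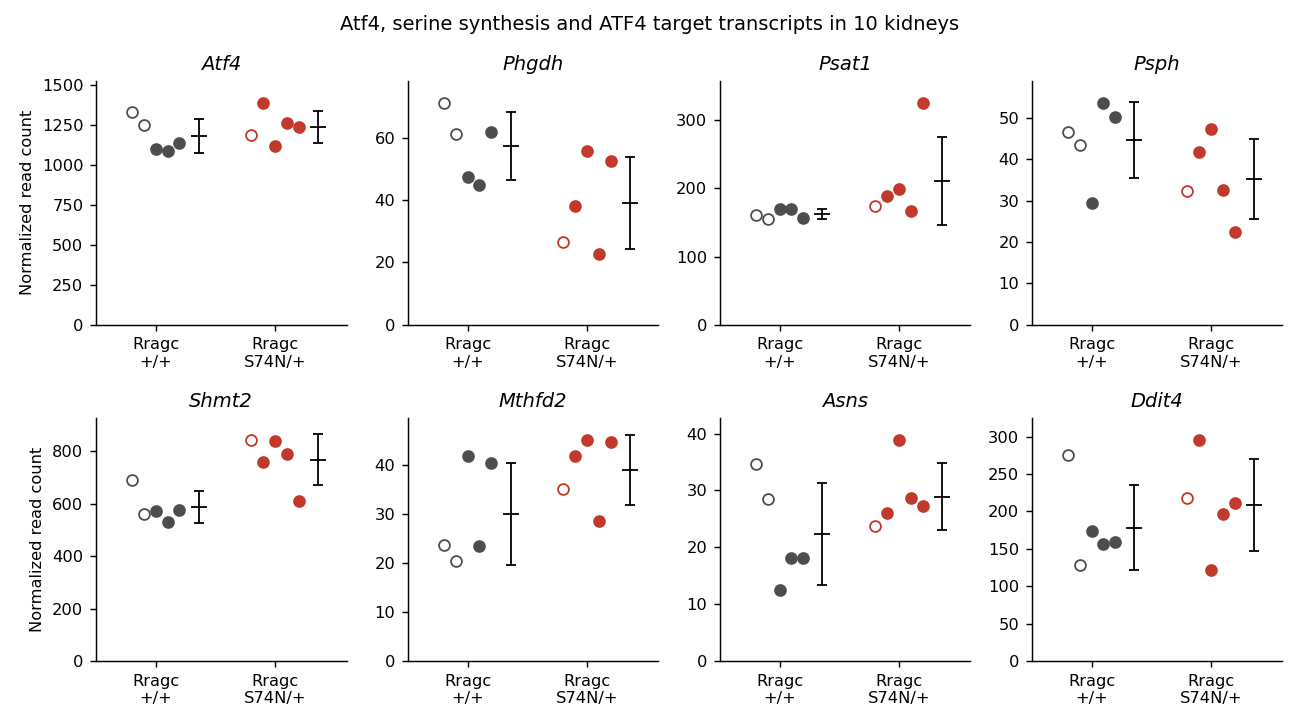
Normalized read count (linear axis from 0) of Atf4, the 3 serine synthesis enzymes, the 2 mitochondrial folate enzymes, Asns and Ddit4 in each Rragc +/+ (grey) and Rragc S74N/+ (red) kidney; open points are the 3 libraries with codes ending in 38 to 40, and bars are mean ± SD (n = 5). For Shmt2, 4 of 5 Rragc S74N/+ kidneys lie above the highest Rragc +/+ kidney, and Psat1 of Rragc S74N/+ mouse 5 (325 normalized counts) stands far above all others.

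The 3 enzymes that make serine did not move as a block. Phgdh, which oxidises the glycolytic intermediate 3-phosphoglycerate in the opening step, had 71.2, 61.4, 47.6, 45.0 and 61.9 normalized counts in Rragc +/+ kidneys and 26.6, 38.1, 55.7, 22.7 and 52.5 in Rragc S74N/+ kidneys. The Rragc S74N/+ kidneys of mice 1, 2 and 4 lay below the lowest Rragc +/+ value, and those of mice 3 and 5 lay within the Rragc +/+ range. The log2 fold change of -0.61 ± 0.24 (SE; 95% interval -1.10 to -0.11) had an unadjusted p of 0.0192 and did not pass after adjustment (limma, adjusted p = 0.201). An exact permutation test over the 252 splits of the kidneys gave p = 0.0714. Without the 3 libraries of the earlier codes the estimate was -0.34 (limma, adjusted p = 0.599). Phgdh is also the member whose counts are least sure, since the last bases of its transcript matched 13 other annotated genes at 95% identity or more in the GENCODE vM21 transcripts, among them the pseudogene Phgdh-ps1, and none of these 13 was among the deposited values. No such match was found for the other members.

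Psat1, the aminotransferase of the middle step, had 162, 155, 170, 169 and 157 normalized counts in Rragc +/+ kidneys. The Rragc S74N/+ kidneys held 175, 189, 199, 167 and 325. The Rragc +/+ kidneys were tightly grouped, 4 of 5 Rragc S74N/+ kidneys lay above all of them, and mouse 5 was far above its group. Psat1 had an estimated log2 fold change of 0.33 ± 0.15 (SE; 95% interval 0.02 to 0.64), with an unadjusted p of 0.0403 and an adjusted p of 0.292 in limma, and with p = 0.0238 in the exact permutation test. Without Rragc S74N/+ mouse 5, the kidney rich in Cfd and Ttr, the log2 fold change was 0.16 (limma, adjusted p = 0.543). Of 5 adipose markers only Cfd was among the values, and of 5 liver markers Alb and Cyp2e1 rose, with liver sums of 3916 to 4218 normalized counts in Rragc +/+ and 4721 to 9153 in Rragc S74N/+ kidneys. Alb did not single out mouse 5. Rragc S74N/+ mice 1 to 5 held 168, 469, 80.9, 450 and 190 normalized counts of it, against 39.7 to 95.4 in Rragc +/+ kidneys. The part of adipose and liver transcripts in the value of mouse 5 was not tested.

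Psph, the phosphatase that releases serine in the last step, had 46.6, 43.6, 29.5, 53.6 and 50.2 normalized counts in Rragc +/+ kidneys. The Rragc S74N/+ kidneys held 32.3, 41.8, 47.3, 32.6 and 22.4, and the groups overlapped over most of their range. Its log2 fold change of -0.35 ± 0.22 (SE; 95% interval -0.81 to 0.11) did not pass (limma, adjusted p = 0.50). Mouse 5 was the lowest of all 10 kidneys for Psph and the highest for Psat1, the enzyme of the step before it, and without it the Psph estimate was -0.20 (limma, adjusted p = 0.743).

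Shmt2 was the only member that passed the test. It encodes the mitochondrial enzyme that splits serine into glycine and a folate-bound carbon unit. The Rragc +/+ kidneys held 689, 562, 574, 530 and 578 normalized counts (586 ± 60.5, SD, n = 5) and the Rragc S74N/+ kidneys held 842, 757, 840, 789 and 609 (767 ± 95.5, SD, n = 5). Mice 1 to 4 of the Rragc S74N/+ group lay above every Rragc +/+ kidney, and mouse 5 lay inside their range. Shmt2 was 1.31-fold higher by the means, with a log2 fold change of 0.38 ± 0.10 (SE; 95% interval 0.17 to 0.60; limma, adjusted p = 0.0422; exact permutation test, p = 0.0159). The adjusted p is close to the threshold. It was under 0.05 in only 2 of the 10 fits that left out a kidney, those without Rragc +/+ mouse 1 and without Rragc S74N/+ mouse 5, and over those 10 fits it ran from 0.00602 to 0.130 while the log2 fold change ran from 0.35 to 0.46. Within the 7 kidneys of the later library codes the log2 fold change was 0.41 and the groups did not overlap (limma, adjusted p = 0.0792).

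Mthfd2, the mitochondrial folate enzyme that acts on the carbon unit released by Shmt2, had 23.7, 20.5, 42.0, 23.6 and 40.6 normalized counts in Rragc +/+ kidneys. In Rragc S74N/+ kidneys it had 35.1, 41.8, 45.2, 28.7 and 44.8. Rragc +/+ kidneys fell into a lower group of 3 and a higher pair, and the Rragc S74N/+ kidneys reached from between them to just above. On the log2 scale the estimate was 0.41 ± 0.23 (SE; 95% interval -0.07 to 0.89), which did not pass (limma, adjusted p = 0.428). It was 0.20 within the later library codes. The point estimates of Mthfd2 and Shmt2 were alike in size, but the wide interval of Mthfd2 holds both 0 and values above that of Shmt2.

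Asns, which makes asparagine from aspartate and glutamine, is among the best known ATF4 targets. Its transcript was scarce here, with 11 to 38 reads per library. The Rragc +/+ kidneys held 34.7, 28.5, 12.5, 18.2 and 18.2 normalized counts and the Rragc S74N/+ kidneys held 23.7, 26.0, 38.9, 28.7 and 27.2. Mice 1 and 2 of the Rragc +/+ group were as high as the Rragc S74N/+ kidneys, and mice 3 to 5 were lower than all of them. The log2 fold change over all 10 kidneys was 0.42 ± 0.26 (SE; 95% interval -0.13 to 0.97; limma, adjusted p = 0.495; exact permutation test, p = 0.167). Mice 1 and 2 are the Rragc +/+ libraries of the earlier codes. Within the 7 kidneys of the later codes the groups did not overlap and the log2 fold change was 0.85 (limma, unadjusted p = 0.00753, adjusted p = 0.122; exact permutation test, p = 0.0286, the smallest that 3 against 4 can give). Of all genes tested, 16.4% did not overlap between genotypes in those 7 kidneys, and 2 of the 8 members, Asns and Shmt2, were among them. With the run of codes as a term in the fit over 10 kidneys, the Asns estimate was 0.51 on the log2 scale (limma, adjusted p = 0.285). It was 0.33 in edgeR (adjusted p = 0.624) and 0.34 in DESeq2 (adjusted p = 0.678). Without Rragc +/+ mouse 3, the lowest kidney, it was 0.24 (limma, adjusted p = 0.741). The share of reads from the mitochondrial genome also separated the genotypes in those 7 libraries, at 28.7% to 30.1% in Rragc +/+ mice 3 to 5 and 23.9% to 25.8% in Rragc S74N/+ mice 2 to 5, and it was 24.5% to 27.1% in the 3 libraries of the earlier codes. Reads on genes separated the genotypes in those 7 libraries too. They were 6501552 to 6728400 in Rragc +/+ mice 3 to 5. In Rragc S74N/+ mice 2 to 5 they were 6872310 to 7393303. The part of mitochondrial share and of depth in the values of Asns and Shmt2 within the later codes was not tested.

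ATF4 binds DNA together with C/EBP proteins at a composite element, which was searched for as the letters TGATGNAA on both strands of the RefSeq promoter windows of GRCm38.p6, a build that differs from the GRCm39 of the counts. The element was found in 2 of the 9 members with a promoter entry, Asns and Trib3, and in 12 of 30 other known ATF4 target genes with an entry, against 3.97% of all 32851 promoters of the same length. The counts are of genes with the element in any of their entries, while the 3.97% is of single entries, so the units differ. Asns is shown with the 2 promoters whose genes hold the same element and moved in opposite directions, Slc1a4 and Got1. Each stretch runs 5′ to 3′ along the gene's own strand, with the 8 bases of the element in capitals.
Asns: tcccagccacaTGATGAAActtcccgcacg
Slc1a4: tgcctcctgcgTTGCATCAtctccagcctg
Got1: cattgcattggTTGCATCAtacaagcctcc
The Asns stretch lies at chr6:7693214-7693243 on the minus strand, its element starts 23 bases before the RefSeq start, and GENCODE vM21 places it in the untranslated part of an exon of the longer transcript Asns-201. The Slc1a4 stretch lies at chr11:20332699-20332728 on the minus strand, with the element 4 bases before the start and in the untranslated exon of Slc1a4-202. The Got1 stretch lies at chr19:43524689-43524718 on the minus strand, with the element 102 bases before the start and in no annotated exon of Got1. In Slc1a4 and Got1 the element reads TGATGCAA on the strand opposite to the gene. Over all genes tested, 259 of the 9890 with a promoter entry held the element. Among those 259, 5 rose, 10 fell and the median log2 fold change was -0.02, so 5.79% were called against 3.85% of the 9890.

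Ddit4, also called Redd1, is a stress-induced inhibitor of mTORC1 and an ATF4 target. It had 276, 128, 174, 157 and 159 normalized counts in Rragc +/+ kidneys and 218, 296, 122, 197 and 211 in Rragc S74N/+ kidneys. Each genotype spanned more than a doubling, and the ranges overlapped. The log2 fold change of 0.22 ± 0.21 (SE; 95% interval -0.22 to 0.65) did not pass (limma, adjusted p = 0.692). Leaving out single kidneys moved the estimate between 0.08 and 0.40, and Rragc +/+ mouse 1, the highest of its group, gave 0.39 when left out (limma, adjusted p = 0.319).

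Across the 8 measured members, 1 rose, 0 fell and 7 did not pass. That is 12.5%, beside 3.69% of all genes. By estimate alone, 6 were higher and 2 lower, and the median log2 fold change was 0.27 beside 0.00 over all genes. An unadjusted p under 0.05 in limma was reached by 3 members, Shmt2, Psat1 and Phgdh, where 15.4% of all genes reached it, and Phgdh differed in sign from the other 2. For 0 of the 8 members did the genotypes not overlap, where 5.0% of all genes did not overlap. The called count was also 1 of 8 in edgeR and in DESeq2. With 8 members these shares move by 12.5 percentage points for each gene.

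**Figure D2:**
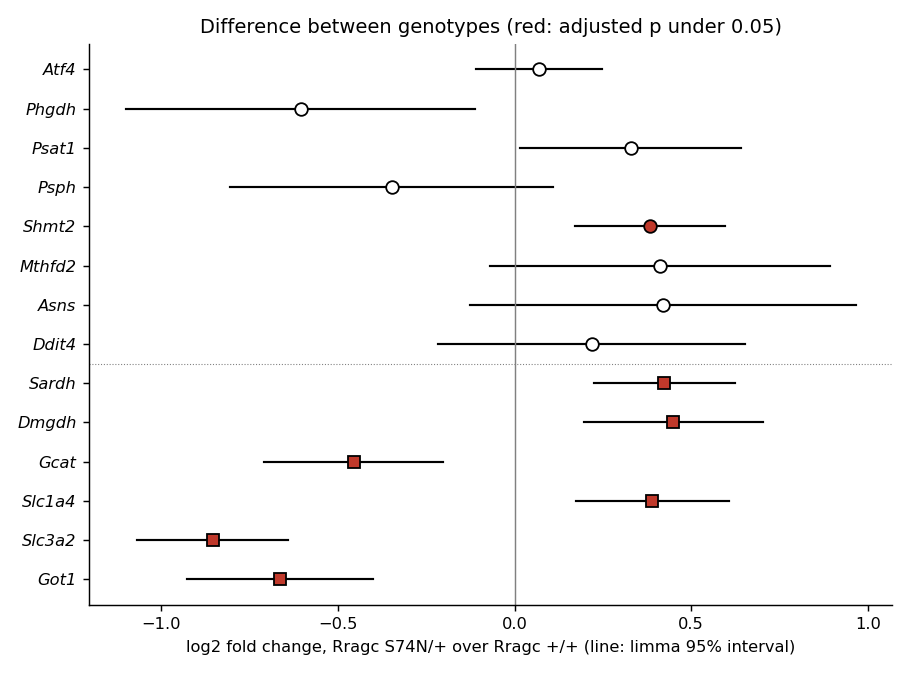
Log2 fold change of Rragc S74N/+ over Rragc +/+ kidneys (5 each) with its limma 95% interval for the 8 members (circles, above the dotted line) and for the genes past the threshold in the lists of glycine and folate genes and of other ATF4 targets (squares); red marks an adjusted p under 0.05. Shmt2 is the only red circle, and among the squares Slc3a2 lies farthest from 0 at -0.85.

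Genes that take up, pass on or break down the products of serine synthesis were taken from a list of 32 folate and glycine genes, of which 30 were tested, 2 rose and 1 fell. That is 10% called, beside 3.69% of all genes, and the median log2 fold change of the list was 0.03. In 3 of the 30 the genotypes did not overlap, beside 5.0% of all genes. Sardh, the mitochondrial enzyme that turns sarcosine into glycine and a folate-bound carbon unit, had 2403, 2117, 2028, 1842 and 1851 normalized counts in Rragc +/+ kidneys and 3263, 2678, 2811, 2528 and 2458 in Rragc S74N/+ kidneys. The lowest Rragc S74N/+ kidney lay above the highest Rragc +/+ kidney. Sardh rose by 0.42 ± 0.09 on the log2 scale (SE; limma, adjusted p = 0.0152), and the call held in 8 of 10 fits that left out a kidney.

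Dmgdh, whose product makes the sarcosine that Sardh uses, had 654, 620, 628, 612 and 521 normalized counts in Rragc +/+ kidneys and 987, 892, 885, 855 and 579 in Rragc S74N/+ kidneys. As for Shmt2, mice 1 to 4 lay above every Rragc +/+ kidney and mouse 5 lay among them. Dmgdh rose by 0.45 ± 0.12 on the log2 scale (SE; limma, adjusted p = 0.0457). The call held in only 1 of 10 fits that left out a kidney, that without Rragc S74N/+ mouse 5, in which the log2 fold change was 0.58 (limma, adjusted p = 0.000731).

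Gcat, a mitochondrial ligase of threonine breakdown that yields glycine, fell. It had 245, 175, 212, 265 and 248 normalized counts in Rragc +/+ kidneys and 170, 168, 178, 169 and 142 in Rragc S74N/+ kidneys. Only Rragc S74N/+ mouse 3 reached into the Rragc +/+ range, just above the 175 of Rragc +/+ mouse 2. Its log2 fold change was -0.46 ± 0.12 (SE; limma, adjusted p = 0.0418), and the call held in 2 of 10 fits that left out a kidney.

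The nearest genes of that list that did not pass were Sfxn3 and Slc46a1. Sfxn3, a mitochondrial serine carrier, had 97.0 ± 10.6 normalized counts in Rragc +/+ and 66.5 ± 13.7 in Rragc S74N/+ kidneys (SD, n = 5 each), with no overlap between genotypes and an estimate of -0.56 on the log2 scale (limma, adjusted p = 0.0516). Slc46a1, a proton-coupled folate transporter, had 265 ± 23.3 and 348 ± 51.3 (SD, n = 5 each), with an estimate of 0.38 on the log2 scale (limma, adjusted p = 0.0640). Both passed in DESeq2 (adjusted p = 0.030 for Sfxn3 and 0.0278 for Slc46a1), which called 5 genes of the list in place of 3, and both passed with the run of library codes as a term (limma, adjusted p = 0.0217 and 0.0114). Neither passed in edgeR (adjusted p = 0.052 and 0.060) or within the later library codes (limma, adjusted p = 0.104 and 0.118). Of 12 alternatives that kept all kidneys or the later codes, Sfxn3 passed in 5 and Slc46a1 in 2.

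**Figure D3:**
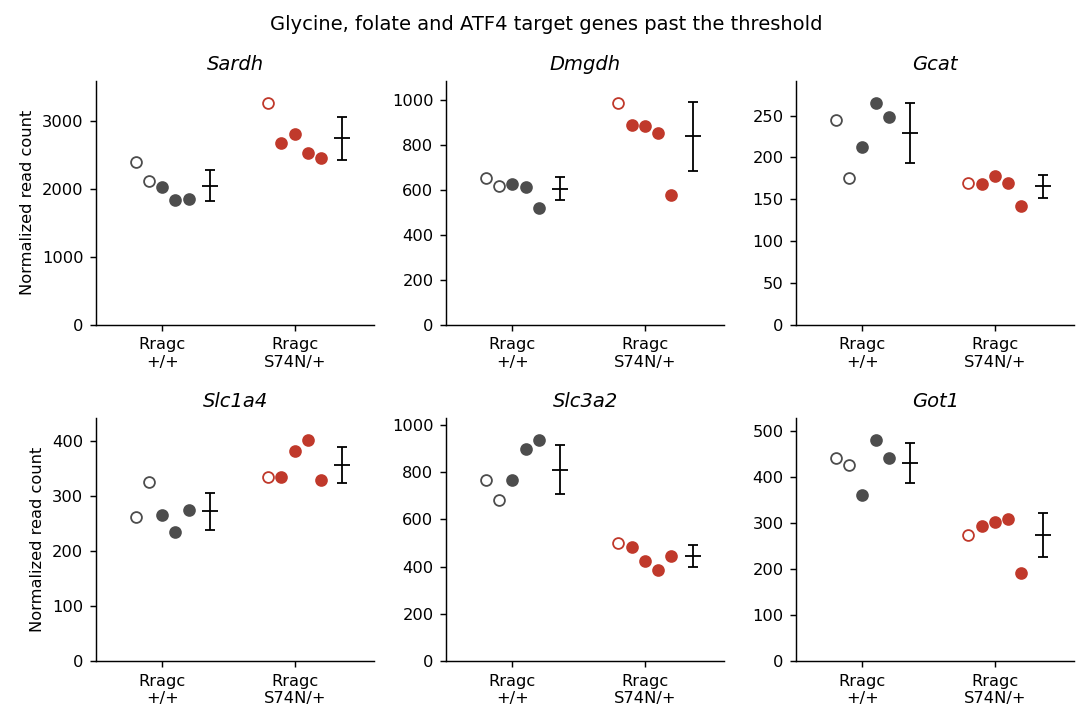
Normalized read count (linear axis from 0) in each Rragc +/+ (grey) and Rragc S74N/+ (red) kidney for the glycine and folate genes Sardh, Dmgdh and Gcat and the ATF4 targets Slc1a4, Slc3a2 and Got1; open points are the 3 libraries with codes ending in 38 to 40, and bars are mean ± SD (n = 5). The genotypes do not overlap for Sardh, Slc1a4, Slc3a2 and Got1.

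Among 36 other genes known as ATF4 targets, 26 were tested, 1 rose and 2 fell, and their median log2 fold change was -0.01. The 3 calls are 11.5% of the list, beside 3.69% of all genes. Slc3a2, the heavy chain shared by several amino acid exchangers, had 768, 682, 768, 897 and 936 normalized counts in Rragc +/+ kidneys and 500, 482, 423, 385 and 444 in Rragc S74N/+ kidneys. Every Rragc S74N/+ kidney lay well below every Rragc +/+ kidney. Slc3a2 had a fold change of -0.85 ± 0.10 on the log2 scale (SE; limma, adjusted p = 4.7e-05), and stayed past the threshold whichever of the 10 kidneys was left out.

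Got1, the cytosolic aspartate aminotransferase, had 440, 426, 362, 480 and 441 normalized counts in Rragc +/+ kidneys and 273, 294, 303, 308 and 191 in Rragc S74N/+ kidneys, again without overlap. Got1 had a fold change of -0.66 ± 0.13 on the log2 scale (SE; limma, adjusted p = 0.00403), which also passed whichever of the 10 kidneys was left out. Within the later library codes Got1 was again at -0.66 but did not pass (limma, adjusted p = 0.0556). Slc1a4, a transporter of neutral amino acids that include serine, moved the other way. It had 262, 325, 267, 235 and 274 normalized counts in Rragc +/+ kidneys and 336, 334, 382, 402 and 329 in Rragc S74N/+ kidneys. The genotypes did not overlap, although Rragc +/+ mouse 2 came close to the lowest Rragc S74N/+ kidney. Slc1a4 rose by 0.39 ± 0.10 on the log2 scale (SE; limma, adjusted p = 0.0424), and the call held in 2 of 10 fits that left out a kidney.

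Of the ATF4 targets that did not pass, Gdf15 and Sesn2 had the smallest p. Gdf15, a stress hormone, had 188, 119, 171, 73.96 and 88.6 normalized counts in Rragc +/+ kidneys and 261, 215, 158, 149 and 295 in Rragc S74N/+ kidneys, with a log2 fold change of 0.78 ± 0.24 (SE; limma, adjusted p = 0.0821). Without Rragc +/+ mouse 1, Gdf15 stood at 0.94 on the log2 scale and passed (limma, adjusted p = 0.0311), as it did at 0.88 with the run of library codes as a term (limma, adjusted p = 0.0273). It passed in only 1 of the 10 fits that left out a kidney and in only 1 of the 12 other alternatives. Without Rragc S74N/+ mouse 5, the highest kidney, Gdf15 was at 0.66 (limma, adjusted p = 0.175). Sesn2, a leucine sensor that holds mTORC1 back, had 189 ± 33.2 and 262 ± 78.0 normalized counts (SD, n = 5 each) and differed by 0.44 on the log2 scale (limma, adjusted p = 0.231). The other measured targets with the composite element in their promoter were Vldlr, Pck2, Jdp2, Herpud1 and Nupr1. Their log2 fold changes lay between -0.16 and 0.13, and limma gave each an adjusted p of at least 0.443.

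**Figure D4:**
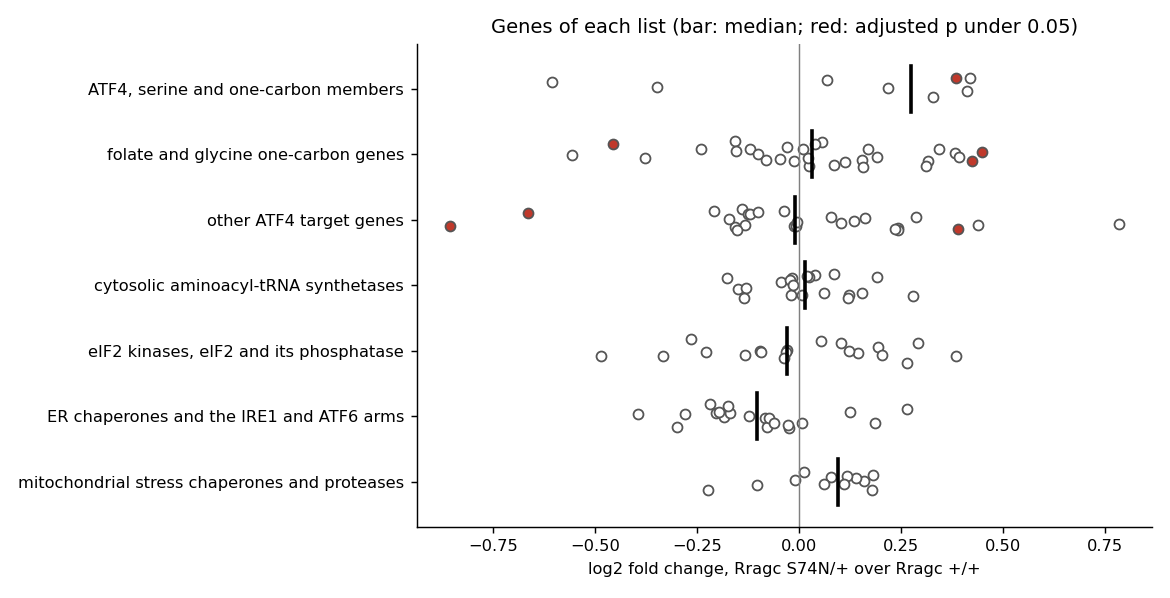
Log2 fold change of Rragc S74N/+ over Rragc +/+ kidneys for each tested gene of 7 lists (points, with random vertical spread within a list), with the median of each list as a bar; red marks an adjusted p under 0.05 in limma. Red points are found in the top 3 lists, on both sides of 0 in the folate and glycine list and in the list of other ATF4 targets.

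Lists of 20, 19, 20 and 12 genes from pathways that feed ATF4, or that run beside it, held 0 genes past the threshold in limma, where 3.69% of all genes passed and 15.4% had an unadjusted p under 0.05, so that a list of this size without a call lies near the share over all genes. Of 20 cytosolic aminoacyl-tRNA synthetases, which charge tRNAs and are often raised by ATF4, limma, edgeR and DESeq2 each called 0, each had 1 gene at an unadjusted p under 0.05, and the median log2 fold change was 0.01. The gene with the smallest p in limma was Farsb, a subunit of the phenylalanine synthetase, at 0.28 on the log2 scale (limma, adjusted p = 0.168), followed by Sars, the seryl-tRNA synthetase, with -0.18 (limma, adjusted p = 0.595). The 19 genes of eIF2, its kinases, its exchange factor and its phosphatase had a median of -0.03, with 0 called by all 3 tools and 2, 2 and 1 genes at an unadjusted p under 0.05 in limma, edgeR and DESeq2. Among them were Eif2b2, a subunit of the exchange factor, at 0.27 (limma, adjusted p = 0.247; 0.32 and adjusted p = 0.0477 with the run of library codes as a term), and the RNA-sensing kinase Eif2ak2 at 0.38 (limma, adjusted p = 0.274).

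The 20 chaperones of the endoplasmic reticulum and genes of the IRE1 and ATF6 arms, which answer unfolded protein, had a median log2 fold change of -0.10, with 16 estimates below 0 and 4 above. All 3 tools called 0 of them, with 3 of 20 at an unadjusted p under 0.05 in each, near the 15.4% of all genes in limma. Dnajb9 was at -0.39 (limma, adjusted p = 0.167), and without Rragc +/+ mouse 3, the lowest of its group, it was at -0.53 and passed (limma, adjusted p = 0.0195). Pdia6, a disulfide isomerase, was at -0.22 (limma, adjusted p = 0.292). The 12 mitochondrial chaperones and proteases had a median of 0.10, with 0 called and 2 at an unadjusted p under 0.05 in each of the 3 tools, namely in limma the chaperonin Hspd1 at 0.18 (adjusted p = 0.255) and the protease Afg3l2 at -0.22 (adjusted p = 0.313).

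Levels of Atf4 varied between mice of the same genotype, and the other members correlated with it to different extents. After each genotype mean was subtracted, the correlation of log2 levels with Atf4 over the 10 kidneys was 0.69 for Ddit4 and 0.46 for Asns. It was 0.18 for Shmt2, 0.11 for Phgdh, 0.03 for Psph, -0.11 for Psat1 and -0.41 for Mthfd2 (Pearson's r). The 3 genes nearest to Atf4 among the 9135 genes whose mean reached 50 normalized counts were Nudt3 (r = 0.94), Coq6 (r = 0.93) and B3galt5 (r = 0.93), and none of these differed between genotypes past the threshold. These correlations are descriptions over libraries that share a preparation and a size factor each. The run of library codes was not subtracted. Rragc +/+ mice 1 and 2, of the earlier codes, were the highest of their group for both Atf4 and Asns. The part of the run in these correlations was not tested.

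In whole tissue, a fall in a transcript cannot be told apart from a fall in the cells that hold it, and several tubule markers moved with genotype. All 5 markers of the distal convoluted tubule fell, with summed levels of 3641 to 4199 normalized counts in Rragc +/+ and 1334 to 1793 in Rragc S74N/+ kidneys. Of 5 markers of the thick ascending limb, 3 fell and 1 rose, with sums of 26660 to 35503 and 11865 to 19886. Of 5 markers of the early proximal tubule, where serine synthesis is placed, Slc5a2 and Slc5a12 fell and Slc22a6 rose, with sums of 36777 to 40813 and 38535 to 45675. Of 5 markers of the late proximal tubule 1 rose, with sums of 15055 to 17930 and 13730 to 21132. Among the other lists, Hsd11b2 of 5 principal cell markers rose, with sums of 1397 to 1778 and 1833 to 3032. Atp6v0d2 and Slc4a1 of 5 intercalated cell markers fell, with sums of 1294 to 1366 and 1017 to 1233. The sums of these lists did not overlap between genotypes. Synpo of 5 podocyte markers rose, with sums of 936 to 1127 and 1088 to 1235 that overlapped. The endothelial, leukocyte and fibroblast markers did not pass in limma. In the distal, ascending limb and proximal lists each marker was counted in every kidney, and the part of cell composition in the values of Shmt2, Sardh, Dmgdh, Gcat, Slc3a2, Got1 and Slc1a4 was not tested.

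**Figure D5:**
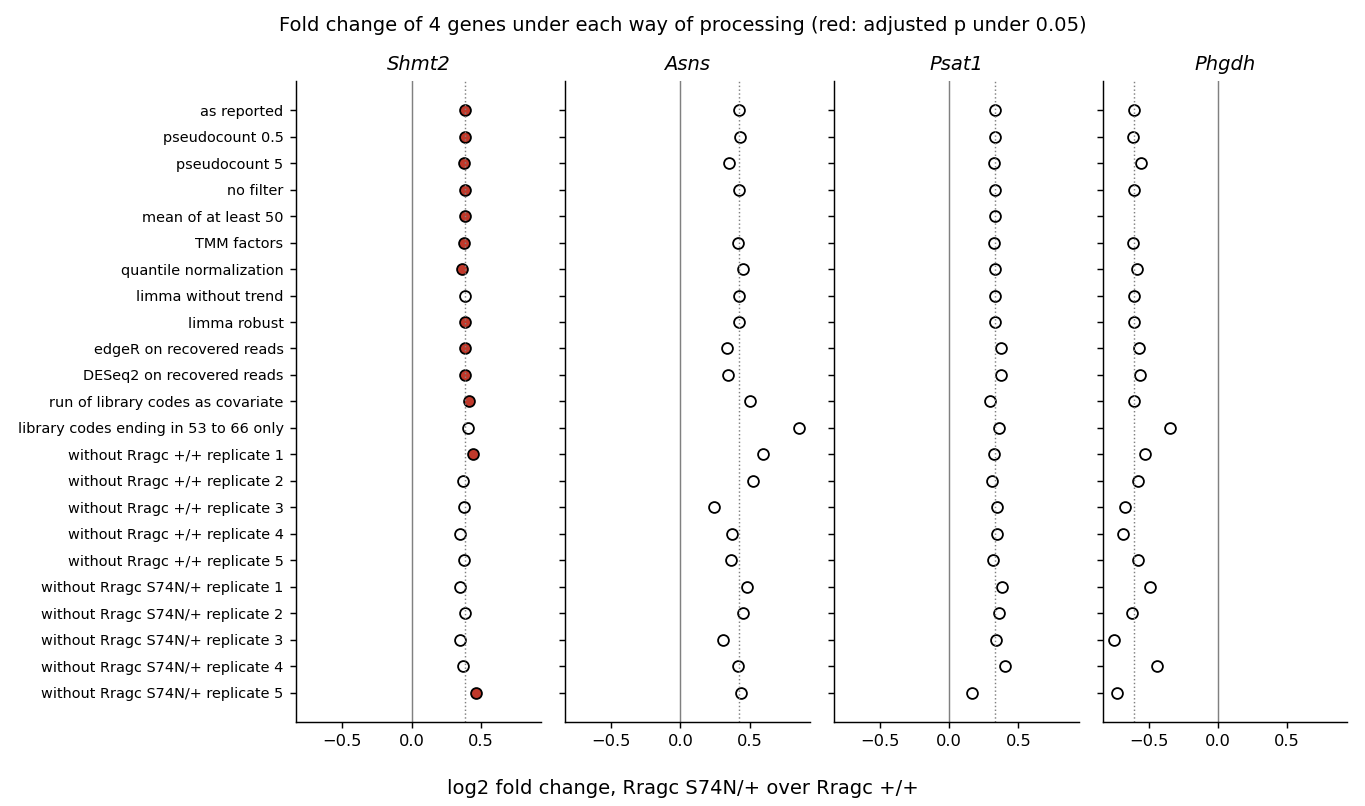
Log2 fold change of Rragc S74N/+ over Rragc +/+ kidneys for Shmt2, Asns, Psat1 and Phgdh under each way of processing (rows). Red marks an adjusted p under 0.05, the solid line is at 0 and the dotted line is at the reported value. Asns and Phgdh have no point for a mean of at least 50 since they lie below that level. All points of a gene lie on the same side of 0, Asns moves farthest when only the library codes ending in 53 to 66 are kept (0.85), and Psat1 moves most without Rragc S74N/+ replicate 5 (0.16).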

How the data were processed

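RNA of 10 whole kidneys was sequenced from the 3′ end with the QuantSeq FWD kit, 1 library per mouse. The authors aligned reads with TopHat2 2.0.10 to GRCm39, allowing several hits per read, used HTSeq 0.6.1 with strand to count reads on genes, and deposited normalized counts for 13837 genes. The deposited signal is a gene's reads over the library's size factor. Each of the 10 columns was assigned to its mouse by title. Multiplied by the size factor, 100% of values were whole reads (tolerance 0.01 reads). Values were tested on log2(value + 1), a scale that understates changes of low genes, with limma 3.58.1 in R 4.3.3 (trend, two-sided), in 13197 genes with at least 10 in at least 5 kidneys, with Benjamini-Hochberg adjustment at 0.05. Named members were also compared by two-sided exact permutation over 252 splits, where the smallest possible p is 0.00794.

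The members, gene lists and tests were chosen with earlier results of these data known. Named genes were the members, Rragc, the called genes of each list with the next 2 by p, the 3 genes nearest to Atf4, and markers set beside a result. Replicate numbers follow the sample records and pair no mice. Nothing beyond 1 mouse per library is stated on litters or dates.

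Alternatives were pseudocounts of 0.5 and 5, dropping the filter or raising it to a mean of 50, TMM, quantile normalization, limma without trend or robust, edgeR 4.0.16 and DESeq2 1.42.0 on the recovered reads, the run of library codes as a term or its later run alone, and leaving out each kidney. The fits were tested on simulated data. Near-identical 3′ ends were sought with blastn 2.17.0 (at least 100 bases). Promoters are from RefSeq, on GRCm38.p6, and no coordinates were converted.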

Additional observations from a re-analysis of the deposited data

Results flagged for a closer look

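In 60 groups of 5 kidneys (30 named genes in each genotype), 5 values, from 2 kidneys, lay far from the rest of their group by Dixon's criterion, where chance alone gives about 1 in 20 groups. Among the members this was Psat1 in Rragc S74N/+ mouse 5, with 325 normalized counts against 199 in the next kidney. The same mouse was the lowest of its group for Gcat, with 142 normalized counts against 168 in the next. The 3 others were all Rragc +/+ mouse 3. It had 70.3 normalized counts of Eif2ak2 against 45.0 in the next kidney, 86.2 of Dnajb9 against 130 in the next, and 190 of Afg3l2 against 225 in the next.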

How the results depend on the processing

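The number of genes called was 291 without the variance trend and 832 with the run of library codes as a term, where 487 were called as reported. DESeq2 called 648 and edgeR 480. Leaving out a kidney gave between 295 and 466 called genes and between 0 and 1 called members. Members called were 0 without the trend and 0 within library codes ending in 53 to 66. In these fits the log2 fold change of Shmt2 was 0.38 and 0.41, and without single kidneys it was 0.35 to 0.46. All 172 alternative values of the 8 members kept their sign, and 162 also kept their side of the threshold. Of 484 alternative values of the 22 other named genes, 431 kept both, 35 lost the call, 15 gained it and 3 changed sign. Without the trend Sardh, Gcat, Dmgdh and Slc1a4 lost the call (limma, adjusted p = 0.0895, 0.101, 0.152 and 0.111). Slc3a2 and Got1 kept it there. Dmgdh and Slc1a4 also lost it under quantile normalization (limma, adjusted p = 0.0527 and 0.0540). Dmgdh lost it within the later library codes too (limma, adjusted p = 0.141). Sign changes were in Nudt3, at 0.0429 within codes ending in 53 to 66 and from -0.081 to 0.0018 without single kidneys, and in Coq6, from -0.0183 to 0.21 without single kidneys, both close to 0 as reported. The cause of these changes was not tested. Depth limits Asns, Mthfd2, Psph and Phgdh most, since they have the fewest reads. No paired analysis was possible because the replicate numbers follow the sample records and name no pairs.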
